A study of Mus musculus with 8 samples.

Results

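The genes described here are 10 secreted activators of Wnt signalling, the 7 Wnt ligands Wnt2b, Wnt3, Wnt4, Wnt5a, Wnt5b, Wnt6 and Wnt11 and the 3 R-spondins Rspo1, Rspo2 and Rspo3. They were taken by gene symbol from the 54532 genes of the deposited FPKM table, and each symbol matched 1 row. The list was drawn up with the genotype difference of these genes already known. The values of the 10 genes in the 2 genotypes are therefore given as a description, without a test.

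RNA came from the duodenum of Zeb2+/- mice, which carry a global heterozygous knockout of Zeb2 and serve as a model of the growth retardation of Mowat-Wilson syndrome, and of WT (Zeb2+/+) mice, with 4 libraries per genotype. Poly-A RNA was sequenced as directional libraries, and FPKM are fragments per kilobase of gene on a scale set for each library. The total implied by that scale was 0.733 to 1.16 times the reads in genes, which the sources used here do not explain. Levels and overlaps in FPKM below are on that scale. The sources used here do not give age, sex, strain, the knockout allele or the animal behind each library, so any p-value measures spread among these 8 libraries, which may be partly technical. Whole duodenal tissue was used, so fewer cells of a type and less RNA per cell cannot be told apart.

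Wnt ligands are lipid-modified glycoproteins that act over a short range on Frizzled receptors. With the co-receptors Lrp5 and Lrp6 they stabilise beta-catenin, and through Ror and Ryk receptors some of them act without it. R-spondins bind Lgr receptors and keep the ubiquitin ligases Rnf43 and Znrf3 from removing Frizzled from the cell surface. In the mouse small intestine, Wnt3 is a product of Paneth cells, Wnt6 has been found in crypt epithelium, and Wnt2b, Wnt4, Wnt5a, Wnt5b and the R-spondins come mainly from the mesenchyme around the crypts.

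Reads in genes numbered 13579347 to 17137417 per library. Zeb2 itself, the check of the labels, lay at 0.301 ± 0.146 FPKM in Zeb2+/- and 0.943 ± 0.192 FPKM in WT (SD, n = 4 each) with no overlap (exact two-sided permutation p = 0.0286, the smallest that 4 against 4 allows). Its limma adjusted p over all genes above 0 was 0.0772, short of the threshold. Zeb2+/- libraries differed from one another more than WT libraries did, with correlations of log2(FPKM + 1) of 0.902 to 0.971 within Zeb2+/- and 0.972 to 0.981 within WT. Zeb2+/- libraries 1 and 3 were the least alike within their genotype (0.902), and values without them are given where they matter. Epithelial markers such as Epcam and Vil1 were abundant in every library, with summed levels of 2578 to 4809 FPKM in Zeb2+/- and 3491 to 4741 FPKM in WT. The 5 duodenal markers (Pdx1, Gata4, Onecut2, Slc40a1 and Cybrd1) were also present in all of them, at summed levels of 40.0 to 95.9 FPKM in Zeb2+/- and 68.7 to 96.8 FPKM in WT.

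Sequence before the start site is shown for 3 ligands, Wnt2b and Wnt4, which were lower in every Zeb2+/- library than in any WT library, and Wnt6, whose mean was higher in Zeb2+/-. Zeb2 protein binds E-box DNA that holds the letters CACCT. The sequences are from RefSeq (GRCm38.p6) and run 5′ to 3′ on the strand of the gene, with CACCT on either strand in capitals. For Wnt6 the 250 bases that end just before the RefSeq start are shown, chr1:74771642-74771891 (plus strand). For Wnt2b and Wnt4 the gene in the deposited table begins farther upstream than the RefSeq start. There 212 and 146 of the 250 bases, with every marked CACCT, lie inside the annotated gene and its UTR (GENCODE vM21), so 25 bases around each CACCT are shown. These are chr3:104961902-104961926 and chr3:104961845-104961869 (minus strand) for Wnt2b and chr4:137277610-137277634 (plus strand) for Wnt4.
Wnt2b, site 1: tggccagagcAGGTGgggacgcggc
Wnt2b, site 2: gcggccgccaCACCTagggcgccgg
Wnt4: gcgcggcgccCACCTgccgccccga
Wnt6: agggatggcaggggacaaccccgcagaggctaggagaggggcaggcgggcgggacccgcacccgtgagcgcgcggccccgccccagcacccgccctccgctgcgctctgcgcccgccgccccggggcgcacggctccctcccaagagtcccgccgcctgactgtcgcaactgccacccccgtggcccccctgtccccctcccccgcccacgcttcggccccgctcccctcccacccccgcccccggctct
In the 250 bases before the RefSeq start, Wnt2b holds CACCT in 2 places, with first bases 207 and 150 bases before it, and Wnt4 holds it once, 15 bases before it. The Wnt6 sequence does not hold it. Of the 10 members, 7 had an entry in the RefSeq table, with 10 start sites among them. CACCT lay in the 250 bases (both strands searched) before 5 of these 10 start sites (those of Wnt2b, Wnt3 and Wnt4 and 2 of Wnt5b), against 46% of 32851 start sites of all genes. The longer form CACCTG, which contains CACCT and was also searched on both strands, lay before 4 of the 10 and before 17.2% of all. CTTTGAT, letters that TCF factors of the Wnt pathway bind, lay before 2 of the 10 (1 each of Wnt5b and Wnt11) and before 3.21% of all. A match describes letters and is no measured binding site.

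Wnt2b differed most between the genotypes among the 10 genes. This ligand of subepithelial mesenchyme activates beta-catenin signalling. Zeb2+/- libraries 1 to 4 had 0.793, 0.421, 0.139 and 0.241 FPKM, against 2.60, 2.77, 2.35 and 1.75 FPKM in WT libraries 1 to 4. Every Zeb2+/- library thus lay below every WT library. The reads behind these values were 62, 20, 7 and 13 in Zeb2+/- and 165, 187, 129 and 106 in WT. The mean of 0.399 ± 0.288 FPKM in Zeb2+/- was 16.8% of the 2.37 ± 0.445 FPKM in WT (SD, n = 4 each), a log2 fold change of -1.28 (limma SE 0.18) on the log2(FPKM + 1) scale. That scale understates changes near 0, and limma voom on the reads gave -2.81. Without Zeb2+/- libraries 1 and 3 the log2 fold change was -1.33. The gene lies on chromosome 3, 104945272 to 104961921, minus strand (GRCm38).

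Wnt4, a ligand of intestinal mesenchyme, was the most abundant of the 10 genes in both genotypes. It stood at 1.67, 1.63, 1.74 and 2.51 FPKM in Zeb2+/- libraries 1 to 4, against 3.78, 3.47, 4.24 and 3.56 FPKM in WT libraries 1 to 4. The genotypes did not overlap, and the highest Zeb2+/- library was library 4. The mean in Zeb2+/- was 1.88 ± 0.419 FPKM, 50.1% of the 3.76 ± 0.346 FPKM in WT, and the log2 fold change was -0.73 (limma SE 0.13). Leaving out any 1 library gave -0.83 to -0.68. Wnt4 lies on chromosome 4, 137277489 to 137299726, plus strand.

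Wnt2b and Wnt4 were the only members without overlap between genotypes, 2 of 10, both lower in Zeb2+/-. Of the 27850 genes above 0 in any library, 4.82% were without overlap and lower in Zeb2+/-. The same pair were the only members past an adjusted p of 0.05 in limma's fit of all 12190 genes with a mean of at least 1 FPKM, where 3.24% were past it in either direction, 2.77% lower and 0.468% higher. Since the members were chosen on this contrast, nothing is read from these counts. The median log2 fold change of the 10 in the fit of all genes above 0 was -0.10, against -0.002 for all of them. The minimum of 1 FPKM was passed by 4 members (Wnt2b, Wnt4, Wnt5a and Wnt6), of which Wnt2b and Wnt5a passed it through WT only, Wnt6 through Zeb2+/- only and Wnt4 in both genotypes.

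**Figure D1:**
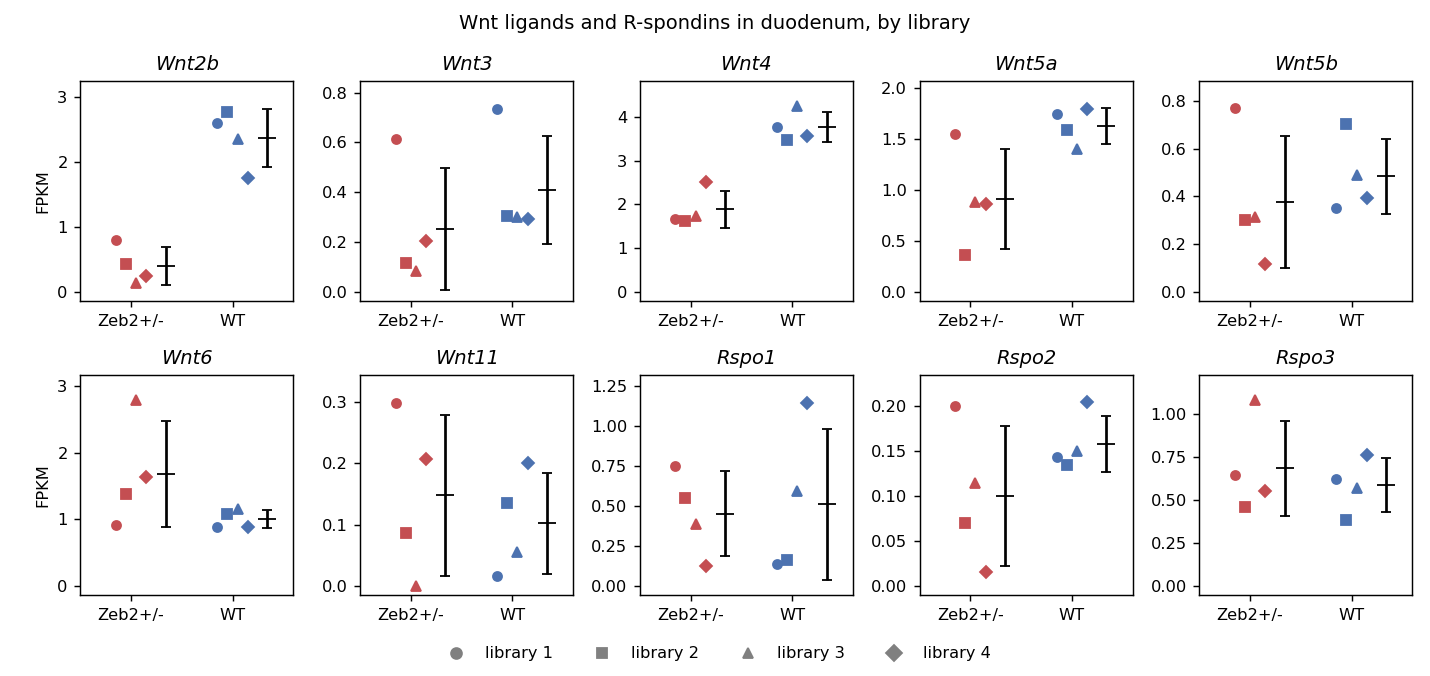
FPKM (vertical axis, a separate scale for each gene) of the 10 genes in Zeb2+/- and WT, with 1 symbol per library and the mean ± SD of 4 libraries as a black bar. For Wnt2b and Wnt4 the highest Zeb2+/- library (0.793 and 2.51 FPKM) stays under the lowest WT library (1.75 and 3.47 FPKM), and the other 8 genes overlap.

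Wnt5a and Wnt5b are ligands of the beta-catenin-independent branch. Wnt5a had 1.55, 0.362, 0.878 and 0.857 FPKM in Zeb2+/- libraries 1 to 4, against 1.75, 1.59, 1.40 and 1.79 FPKM in WT libraries 1 to 4. Zeb2+/- library 1 lay within the WT range and the other 3 lay below it. The means were 0.913 ± 0.489 FPKM in Zeb2+/- and 1.63 ± 0.177 FPKM in WT (log2 fold change -0.49, SE 0.19), and the log2 fold change was -0.64 without Zeb2+/- library 1 and -0.34 without Zeb2+/- library 2. Wnt5b was spread widely, at 0.118 to 0.770 FPKM (median 0.308) in Zeb2+/- and 0.350 to 0.702 FPKM (median 0.442) in WT. The span of Wnt5b overlaps Fbxl14 on the opposite strand, at 14.1 FPKM in Zeb2+/- and 13.8 FPKM in WT. The sources used here do not state the strand setting of the counting, so the level of Wnt5b is uncertain.

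Wnt6, a ligand found in crypt epithelium, had the largest ratio of means in the upward direction. It stood at 0.908, 1.37, 2.79 and 1.64 FPKM in Zeb2+/- libraries 1 to 4, from 37, 34, 73 and 46 reads. WT libraries 1 to 4 had 0.877, 1.08, 1.15 and 0.887 FPKM, from 29, 38, 33 and 28 reads. Zeb2+/- libraries 2, 3 and 4 lay above all WT libraries, and Zeb2+/- library 1 lay within the WT range. The means were 1.68 ± 0.800 FPKM in Zeb2+/- and 0.999 ± 0.139 FPKM in WT (log2 fold change 0.38, SE 0.20). The log2 fold change was 0.20 without Zeb2+/- library 3 and 0.53 without Zeb2+/- library 1. The summed epithelial markers were likewise lowest in Zeb2+/- library 1 (2578 FPKM) and highest in Zeb2+/- library 3 (4809 FPKM) within that genotype, as were 5 of the 6 markers (all but Krt19), and the part of this in the Wnt6 values was not tested. The FPKM scale also differed between these libraries. A read per kilobase stood for 0.0538 FPKM in Zeb2+/- library 1 and 0.0837 FPKM in library 3, at 16096115 and 16303910 reads in genes. The part of this scale in the order of the libraries, for Wnt6 and for the markers, was not tested. Wnt10a, the next Wnt gene, begins 6193 bases beyond Wnt6 on chromosome 1 and had 13, 0, 0 and 4 reads in Zeb2+/- libraries 1 to 4, against 0, 1, 0 and 0 reads in WT libraries 1 to 4, too few to compare.

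Wnt3, the Paneth cell ligand, was near the lower limit of these libraries. It had 0.612, 0.115, 0.0816 and 0.203 FPKM in Zeb2+/- libraries 1 to 4 (35, 4, 3 and 8 reads), against 0.733, 0.303, 0.299 and 0.293 FPKM in WT libraries 1 to 4 (34, 15, 12 and 13 reads). Library 1 was the highest of both genotypes. Zeb2+/- libraries 2, 3 and 4 lay below all WT libraries. The log2 fold change was -0.17 (SE 0.16) with all libraries, -0.30 without Zeb2+/- library 1 and -0.07 without WT library 1. With voom, which lacks the compression near 0 of the log2(FPKM + 1) scale, it was -0.92 (SE 0.69). Wnt11, a ligand with roles in cell movement, had at most 23 reads in a library, 0 to 0.299 FPKM in Zeb2+/- and 0.0160 to 0.201 FPKM in WT. It had 0 reads in Zeb2+/- library 3, where a count of 0 allows up to 3 reads, or 0.0607 FPKM, by counting error alone.

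The R-spondins showed no common direction. Rspo3, which lymphatic endothelium and stromal cells below the crypts are known to make, stood at 0.644, 0.458, 1.08 and 0.555 FPKM in Zeb2+/- libraries 1 to 4, against 0.622, 0.382, 0.571 and 0.764 FPKM in WT libraries 1 to 4. The genotypes overlapped, and the highest value was that of Zeb2+/- library 3, from 40 reads. The log2 fold change was 0.08 (SE 0.14), and -0.03 without that library. Rspo1 ranged from 0.121 to 0.749 FPKM (median 0.468) in Zeb2+/- and from 0.137 to 1.15 FPKM (median 0.377) in WT, with 3 to 32 reads per library. Its log2 fold change was -0.02 (SE 0.23) and turned to 0.16 without WT library 4. Rspo2, a strong activator of the same receptors, had 0.0153 to 0.200 FPKM in Zeb2+/- and 0.134 to 0.204 FPKM in WT, from 1 to 19 reads. Zeb2+/- libraries 2, 3 and 4 lay below all WT libraries for Rspo2, and Zeb2+/- library 1 lay within the WT range. The log2 fold change of Rspo2 was -0.08 (SE 0.07), and -0.95 (SE 0.68) with voom.

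**Figure D2:**
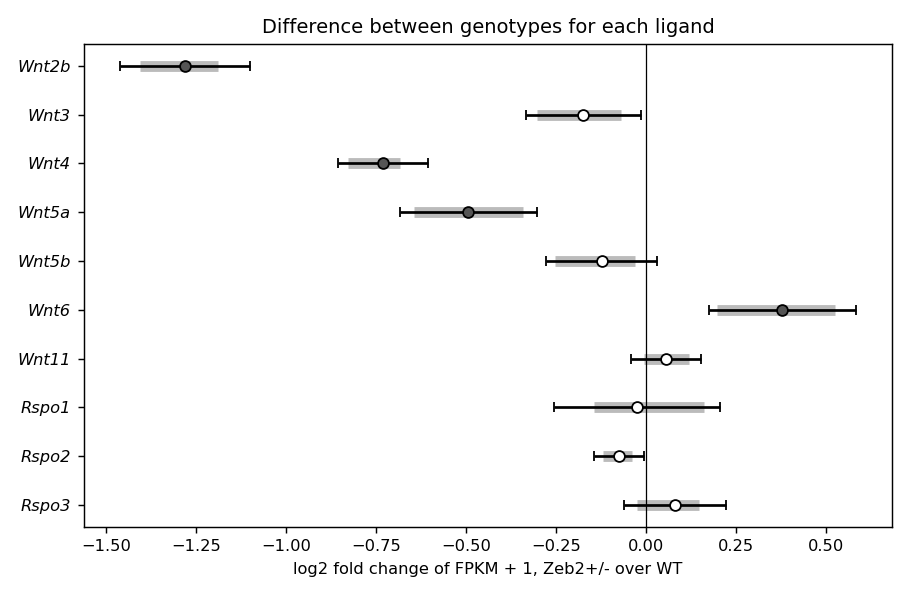
Log2 fold change of FPKM + 1, Zeb2+/- over WT (horizontal axis), of the 10 genes, with limma's SE as black bars and the range obtained by leaving out each library in turn as grey bars; filled points mark the 4 genes with a mean of at least 1 FPKM. Wnt2b (-1.28) and Wnt4 (-0.73) lie farthest below 0 and Wnt6 (0.38) farthest above it. This scale understates changes of genes near 0 FPKM, so the order depends partly on abundance.

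Summed over the 7 Wnt ligands, the level was 5.65 ± 0.979 FPKM in Zeb2+/- and 9.76 ± 0.586 FPKM in WT (SD, n = 4 each). The sums did not overlap (4.28 to 6.60 FPKM in Zeb2+/- and 8.88 to 10.1 FPKM in WT). Wnt2b and Wnt4, already known to differ, are in this sum, and every other Wnt ligand overlapped between genotypes. It therefore does not show a fall of the Wnt ligands as a family. The sum of the 3 R-spondins was 1.24 ± 0.437 FPKM in Zeb2+/- and 1.25 ± 0.633 FPKM in WT, and overlapped. Wnt2b made up 12.0%, 9.84%, 2.35% and 4.18% of the summed Wnt level in Zeb2+/- libraries 1 to 4, against 25.8%, 27.5%, 23.5% and 19.7% in WT libraries 1 to 4. Wnt6 made up 13.7% to 47.0% of it in Zeb2+/- and 8.68% to 11.5% in WT. Wnt4 took 34.0 ± 8.26% of the sum in Zeb2+/- and 38.6 ± 3.41% in WT, so its share overlapped between genotypes although its level did not.

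By mean FPKM, a level per gene length, the order in Zeb2+/- was Wnt4, Wnt6, Wnt5a, Rspo3, Rspo1, Wnt2b, Wnt5b, Wnt3, Wnt11 and Rspo2. In WT it was Wnt4, Wnt2b, Wnt5a, Wnt6, Rspo3, Rspo1, Wnt5b, Wnt3, Rspo2 and Wnt11. In Zeb2+/- no neighbouring pair kept its order in all 4 libraries. In WT, 4 neighbouring pairs did, namely Wnt4 over Wnt2b, Wnt5a over Wnt6, Wnt6 over Rspo3 and Wnt3 over Rspo2. Wnt2b stood at place 6 in Zeb2+/- and place 2 in WT.

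The members varied more within Zeb2+/- than within WT. The coefficient of variation was larger in Zeb2+/- for 9 of 10 genes, with a median of 65.4% in Zeb2+/- and 23.5% in WT. The share of all genes with this pattern was not counted, so it is not read as a trait of the ligands. Zeb2+/- libraries also differed more over the tested genes as a whole (correlations of 0.902 to 0.971, against 0.972 to 0.981 within WT). The part of low read numbers in this spread was not tested. Zeb2+/- library 1 had the highest Zeb2+/- value for 7 of the 10 (Wnt2b, Wnt3, Wnt5a, Wnt5b, Wnt11, Rspo1 and Rspo2). Of 13 marker lists, 7 also had their highest Zeb2+/- sum there. Fibroblast markers summed to 61.3 FPKM in Zeb2+/- library 1, 24.2 to 33.4 FPKM in the other Zeb2+/- libraries and 65.7 to 98.5 FPKM in WT. Smooth muscle markers, among them Acta2 and Myh11, were among the 7, with a summed level of 663.8 FPKM in Zeb2+/- library 1, 271.7 to 456.0 FPKM in the other Zeb2+/- libraries and 212.3 to 272.1 FPKM in WT. The other 5 were lymphatic and blood endothelial, macrophage, mesothelial and enteric glial markers (21.6, 16.8, 26.2, 7.11 and 2.56 FPKM in that library). The part of these cells in the values of the 7 genes was not tested.

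Markers of the cells known to make these ligands are set beside them. The tests on marker genes use limma with Benjamini-Hochberg adjustment over the 12190 genes. The marker lists were drawn up with earlier results of these data known, so counts of calls within a list are descriptive. Of all genes tested, 8.91% were lower and 10% higher at an unadjusted p below 0.05. Past an adjusted p of 0.05, 2.77% were lower and 0.468% higher. Of 4 tested telocyte markers (subepithelial cells that feed the crypt with Wnt), 2 fell. Bmp5, a BMP ligand, fell to 0.168 ± 0.117 FPKM in Zeb2+/-, against 2.04 ± 0.325 FPKM in WT (log2 fold change -1.38, adjusted p = 0.00143), and Pdgfra, a growth factor receptor, to 1.38 ± 0.794 FPKM, against 4.05 ± 1.06 FPKM in WT (log2 fold change -1.11, adjusted p = 0.0378). The Pdgfra call was lost in 11 of 19 alternatives, among them voom, any 1 WT library left out and Zeb2+/- library 2, 3 or 4 left out (adjusted p of 0.00129 to 0.124 over the 19). The summed level of the 6 telocyte markers was 7.30 to 9.73 FPKM in Zeb2+/- and 14.5 to 18.8 FPKM in WT. Much of the sum came from Sox6 and F3, which overlapped between genotypes and did not pass (adjusted p = 0.33 and 0.35). Sox6 stood at 3.47 ± 1.58 FPKM in Zeb2+/- and 4.98 ± 0.595 FPKM in WT, and F3 at 2.60 ± 0.429 FPKM and 3.30 ± 0.556 FPKM. Foxl1, the defining factor of telocytes, was below the minimum at 0.188 ± 0.161 FPKM in Zeb2+/- and 0.894 ± 0.289 FPKM in WT, and at 0 in Zeb2+/- library 3.

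For the 4 trophocyte markers (Cd81, Cd34, Grem1 and Ackr4, of stromal cells below the crypts), 0 of 3 tested passed in limma or voom and 1 was lower at an unadjusted p below 0.05. Their summed levels were 49.9 to 56.9 FPKM in Zeb2+/- and 52.5 to 58.2 FPKM in WT, mostly from Cd81. In Zeb2+/- library 1, Cd81 gave 37.0 FPKM and Grem1 10.4 FPKM of the 49.9 FPKM. The gene lower at that cut was Cd34, a surface protein of stromal and endothelial cells, at 0.680 ± 0.143 FPKM in Zeb2+/- and 1.63 ± 0.360 FPKM in WT without overlap (adjusted p = 0.0511). It passed in 4 of 19 alternatives, with median of ratios, plain eBayes, array weights and without Zeb2+/- library 1 (adjusted p of 0.00997 to 0.161 over the 19). Grem1 had the higher mean in Zeb2+/- (6.80 ± 2.62 FPKM, against 4.46 ± 0.497 FPKM in WT, adjusted p = 0.286), with overlapping groups. Ackr4, under the minimum, stood at 1.02 ± 0.599 FPKM in Zeb2+/- and 0.863 ± 0.252 FPKM in WT. Cd81 stood at 45.6 ± 6.21 FPKM in Zeb2+/- and 48.1 ± 2.22 FPKM in WT. Of 7 fibroblast markers 2 fell, Pdgfrb (0.784 ± 0.234 FPKM in Zeb2+/- and 4.12 ± 0.388 FPKM in WT, adjusted p = 0.000587) and the collagen Col3a1 (9.01 ± 3.71 FPKM in Zeb2+/- and 27.5 ± 7.28 FPKM in WT, adjusted p = 0.0135). The Col3a1 call was lost with voom and without WT library 1 (adjusted p of 0.00103 to 0.0613 over 20 alternatives). Without Zeb2+/- libraries 1 and 3, 4 of the 7 fell. With all libraries, 5 of the 7 fibroblast markers were lower and 0 higher at an unadjusted p below 0.05. Of 3 tested lymphatic endothelial markers, Mmrn1 (adjusted p = 0.00112) and the hyaluronan receptor Lyve1 (adjusted p = 0.0161) fell, with log2 fold changes of -1.52 and -1.04. The Lyve1 call was lost with voom and without WT library 1 or WT library 4 (adjusted p of 0.00634 to 0.0756 over 19 alternatives). Flt4, a receptor of lymphatic growth factors, and Reln were under the minimum and also lower without overlap (0.181 ± 0.111 FPKM in Zeb2+/- and 1.30 ± 0.196 FPKM in WT for Flt4), and without a filter 4 of the 6 lymphatic markers passed, all lower. The chemokine Ccl21a went the other way in library 1, with 18.9 FPKM of the 21.6 FPKM summed over the 6 markers there. Because of it the sums overlapped, at 1.91 to 21.6 FPKM in Zeb2+/- and 7.99 to 14.8 FPKM in WT. Rspo3, also a product of lymphatic endothelium, had the level given above.

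All 8 Paneth cell markers fell, with summed levels of 361.1 to 868.4 FPKM in Zeb2+/- and 2794 to 5555 FPKM in WT. The lectin Itln1 fell to 57.8 ± 8.52 FPKM in Zeb2+/-, against 371.8 ± 116 FPKM in WT (adjusted p = 0.000596). Ang4, an antimicrobial ribonuclease, and the defensin Defa22 fell with log2 fold changes of -4.75 and -2.34 (adjusted p = 0.00111 for both), though both have near-identical copies that can share reads. Wnt3, the Paneth ligand, overlapped between genotypes at the few reads given above. Blood endothelial markers summed to 4.34 to 16.8 FPKM in Zeb2+/- and 57.2 to 69.4 FPKM in WT, and 4 of 5 fell. They were the receptors Kdr and Tie1, the cadherin Cdh5 and Plvap, a protein of endothelial pores, with log2 fold changes of -1.51, -1.18, -1.08 and -2.83. Plvap had the largest change (7.12 ± 3.97 FPKM in Zeb2+/- and 49.3 ± 4.57 FPKM in WT, adjusted p = 0.00812) and was named after its values were seen. Macrophage markers summed to 4.22 to 26.2 FPKM in Zeb2+/- and 56.9 to 68.2 FPKM in WT. Of the 5, Adgre1, Cx3cr1 and the growth factor receptor Csf1r fell (log2 fold changes of -1.87, -1.18 and -2.24), with the Cx3cr1 call lost in voom. Without Zeb2+/- libraries 1 and 3, 4 of 5 fell in each of the blood endothelial and macrophage lists. With all libraries, 5 of 5 in each were lower at an unadjusted p below 0.05.

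Pancreatic acinar markers, of an organ that lies against the duodenum, summed to 0 to 5.31 FPKM in Zeb2+/- and 114.4 to 1685 FPKM in WT. All 5 fell in limma, among them the digestive enzyme genes Ctrb1, Cela2a and Pnlip, and 0 of 5 passed with voom or without Zeb2+/- libraries 1 and 3. Epithelial, smooth muscle, mesothelial and duodenal markers gave 0 calls of 6, 6, 3 and 5 tested in limma and in voom. At an unadjusted p below 0.05, 1 epithelial and 4 smooth muscle markers were higher in Zeb2+/-, 1 duodenal marker was lower, and 0 mesothelial markers passed. The 4 enteric glial markers were under the minimum. How far the amounts of these cells enter the Wnt2b and Wnt4 values was not tested.

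**Figure D3:**
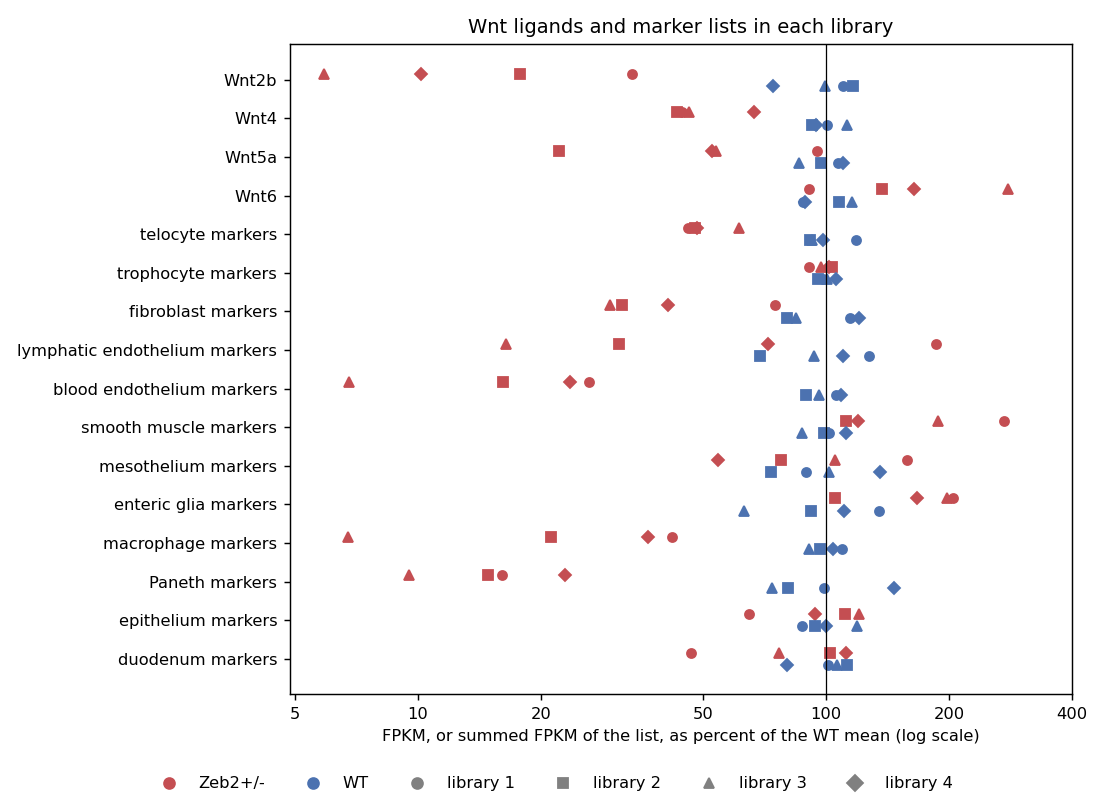
FPKM of 4 ligands and summed FPKM of 12 marker lists in each library, as percent of the WT mean on a log axis (Zeb2+/- in red, WT in blue, 1 symbol per library number). Wnt2b lies below every WT library in all 4 Zeb2+/- libraries, as do the sums of telocyte, fibroblast, blood endothelial, macrophage and Paneth markers.

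The rest of the pathway, 89 genes in 6 lists, was not used to choose the 10 ligands and was tested with the same limma fit. The lists were also drawn up with earlier results of these data known, so their counts and shares are descriptive. Of the 89 genes, 49 passed the minimum, 2 fell and 0 rose in limma (1 and 0 in voom). Taking unadjusted p below 0.05, 13 (26.5%) were lower and 0 higher, against 8.91% lower and 10% higher of all genes tested. The share of calls among the 49 was 4.08%, against 2.77% lower and past the threshold among all genes tested. The median log2 fold change of the 49 was -0.12, against 0.00 for all 12190. Both falling genes encode secreted antagonists, which bind Wnt ligands and keep them from Frizzled. Sfrp1, an antagonist of mesenchymal origin, had 2.84, 2.17, 1.63 and 2.41 FPKM in Zeb2+/- libraries 1 to 4, against 8.24, 6.27, 6.42 and 6.51 FPKM in WT libraries 1 to 4. The genotypes were far apart (log2 fold change -1.28, SE 0.14, adjusted p = 0.00167), and Sfrp1 passed in all 19 alternatives in which it was tested. Sfrp5, an antagonist of crypt epithelium, had 1.56, 2.47, 1.81 and 2.34 FPKM in Zeb2+/- libraries 1 to 4, against 3.77, 3.60, 3.59 and 4.79 FPKM in WT libraries 1 to 4 (log2 fold change -0.70, SE 0.14, adjusted p = 0.0284). Its groups did not overlap, but its call was lost in 10 of 19 alternatives, among them without any 1 WT library, without Zeb2+/- library 3 and with voom (adjusted p of 0.0104 to 0.0950 over the 19). The other 3 tested antagonists, Dkk3, Kremen1 and Kremen2, did not pass, except Dkk3 without Zeb2+/- library 1.

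Of 21 receptors and regulators of receptor turnover, 12 were tested and 0 passed in limma or voom, with 4 lower at an unadjusted p below 0.05. Fzd1, a Frizzled receptor, stood at 1.999 ± 0.762 FPKM in Zeb2+/- and 3.44 ± 0.244 FPKM in WT (log2 fold change -0.60, adjusted p = 0.115). It passed in 3 of 19 alternatives, without Zeb2+/- library 1, without Zeb2+/- libraries 1 and 3, and with array weights. Fzd4, another Frizzled receptor, stood at 3.06 ± 0.557 FPKM in Zeb2+/- and 4.34 ± 0.713 FPKM in WT (log2 fold change -0.40, adjusted p = 0.181). The median of the 12 was -0.04.

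Genes of ligand secretion gave 0 calls of 5 tested by limma and by voom, with 1 lower at an unadjusted p below 0.05. Wls, the carrier that takes Wnt proteins to the cell surface, stood at 2.12 ± 0.372 FPKM in Zeb2+/- and 2.70 ± 0.435 FPKM in WT (adjusted p = 0.351), and Vps35, a retromer subunit that recycles it, at 16.8 ± 3.27 FPKM in Zeb2+/- and 22.2 ± 3.01 FPKM in WT (adjusted p = 0.246). Signal transduction genes gave 0 calls of 17 by either tool, with 4 lower at an unadjusted p below 0.05. Ctnnb1, which encodes beta-catenin, was named after its values were seen and stood at 121.5 ± 29.5 FPKM in Zeb2+/- and 156.3 ± 9.22 FPKM in WT (adjusted p = 0.306). It passed in 1 of 20 alternatives, scaling to TPM (adjusted p of 0.0334 to 0.511 over the 20). Bcl9l, a co-activator of beta-catenin, stood at 3.78 ± 0.527 FPKM in Zeb2+/- and 5.76 ± 0.920 FPKM in WT (adjusted p = 0.0943), and the kinase Gsk3b at 7.98 ± 1.99 FPKM in Zeb2+/- and 11.2 ± 0.971 FPKM in WT (adjusted p = 0.202). Of the 13 Wnt and R-spondin genes that are not among the 10, 0 reached the minimum, and 4 were at 0 in all libraries.

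Target genes of beta-catenin signalling, 12 in the list, gave 0 calls of 10 tested by limma and by voom, with 1 lower at an unadjusted p below 0.05. Sox9, a factor of crypt and Paneth cells, stood at 2.65 ± 0.437 FPKM in Zeb2+/- and 3.64 ± 0.139 FPKM in WT (log2 fold change -0.35, SE 0.11, adjusted p = 0.144). Ephb2, a receptor that sorts crypt cells, stood at 1.76 ± 0.887 FPKM in Zeb2+/- and 2.70 ± 0.157 FPKM in WT (adjusted p = 0.271). Axin2, the usual readout of the pathway and chosen after its values were seen, stood at 5.66 ± 1.72 FPKM in Zeb2+/- and 6.60 ± 1.30 FPKM in WT (log2 fold change -0.21, SE 0.20, adjusted p = 0.626), with overlapping groups.

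**Figure D4:**
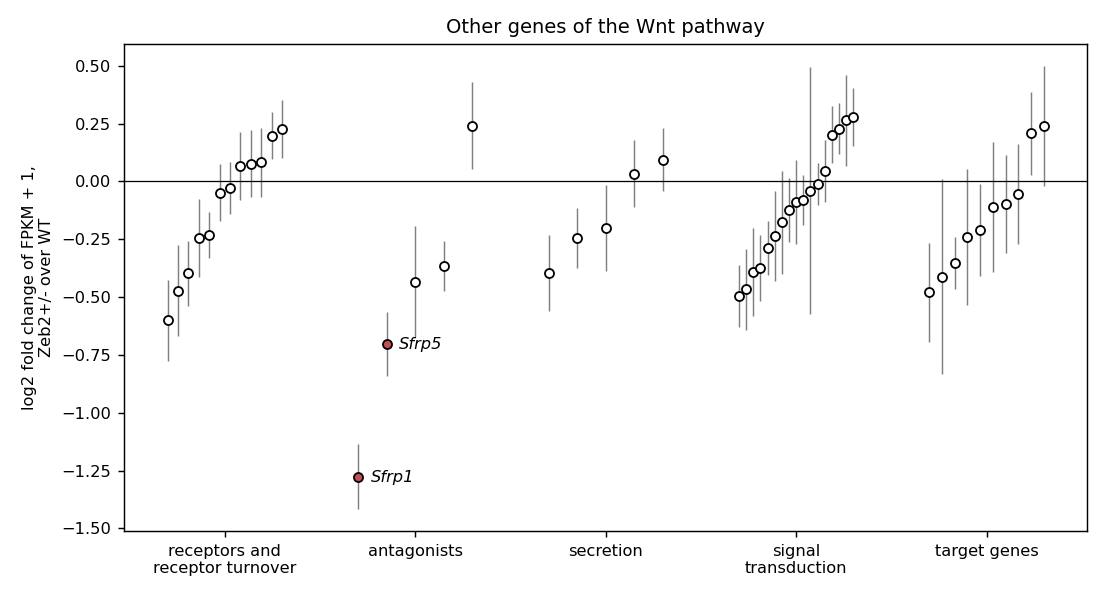
Log2 fold change of FPKM + 1, Zeb2+/- over WT (vertical axis), of the 49 tested pathway genes outside the 10 ligands, grouped by role, with limma's SE as bars. Filled points mark genes past an adjusted p of 0.05, Sfrp1 (-1.28) and Sfrp5 (-0.70).

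To find genes that varied like the 4 members above the minimum, deviations of log2(FPKM + 1) from each genotype mean were correlated over the 8 libraries with 10832 protein-coding genes. Deviations most like those of Wnt2b were found for Sh3bp2, Zfp3 and Brat1 (Pearson r of 0.975, 0.968 and 0.960), and like those of Wnt4 for Slc16a9, Kcnk6 and Gm7861 (0.956, 0.951 and 0.944). Bicd2, Dffb and Upf3a were nearest to Wnt5a (0.986, 0.985 and 0.981), and Ammecr1l, Kcmf1 and Anxa7 nearest to Wnt6 (0.994, 0.990 and 0.989). These are descriptions of 8 libraries that share the spread of Zeb2+/- libraries 1 and 3, taken as the highest of many values.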

How the data were processed

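The table deposited by the authors holds FPKM for 8 duodenum libraries, with gene symbol, position and length. Per the submitters' processing notes, HISAT2 2.0.5, featureCounts 1.5.0-p3 and GRCm38 (mm10) were used. The sources used here do not state the strand setting, annotation release or filters. In each library, FPKM multiplied by gene length came out as whole multiples of a single step (100% of values above 0, tolerance 0.01 read), so reads per gene were rebuilt from the deposited FPKM. The total implied by the deposited FPKM was 0.733 to 1.16 times the rebuilt sum, a scale factor that the sources used here do not explain. No pair of replicates agreed within sampling noise (the lowest chi-square per degree of freedom was 13.7).

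The test was limma 3.58.1 in R 4.3.3 (trend and robust eBayes) on log2(FPKM + 1), genotype only, for 12190 genes with a mean of at least 1 FPKM. Calls are two-sided and need an adjusted p (Benjamini-Hochberg) below 0.05. Members under the minimum take their fold change from the same fit of all 27850 genes above 0. The fit was also run on simulated reads, which had equal spread in both genotypes. The real libraries do not, so that run does not measure the error rate of these calls. Of 2 IDs with the symbol Ccl21a the more abundant was used.

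The members and lists were chosen with earlier results of these data known. Genes named are the members, Zeb2, for each pathway list those past the threshold (otherwise the 2 of smallest p), for each marker list up to 3 past the threshold, and the 3 genes most alike each member above the minimum.

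Alternatives were another pseudocount, filter or scaling, eBayes without trend and robust, array weights, a replicate block, voom on the rebuilt reads and leaving out libraries.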

Additional observations from a re-analysis of the deposited data

Results flagged for a closer look

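In a group of 4 libraries, the highest or lowest value was set against the others by its gap to the nearest one relative to the whole range. Chance flags about 1 in 20 groups, and 12 of 104 groups of the named genes and marker sums were flagged. Among the 10 ligands, Wnt3 was flagged in WT, where library 1 had 0.733 FPKM and the other 3 libraries 0.293 to 0.303 FPKM, and Wnt4 in Zeb2+/-, where library 4 had 2.51 FPKM. Without Zeb2+/- library 4 the log2 fold change of Wnt4 was -0.83, against -0.73 with all libraries. Of the other pathway genes, the highest WT library stood apart for Fzd1 (3.81 FPKM), Sfrp1 (8.24 FPKM) and Sfrp5 (4.79 FPKM).

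Among markers, the highest Zeb2+/- library stood apart for Col3a1 (14.5 FPKM), Cela2a (0.769 FPKM), Pnlip (2.52 FPKM) and the sums of telocyte (9.725 FPKM) and pancreatic acinar markers (5.31 FPKM). The lowest library stood apart for Tie1 in Zeb2+/- (0.477 FPKM) and Mmrn1 in WT (2.39 FPKM).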

How the results depend on the processing

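No alternative in which they were fitted turned the sign of Wnt2b, Wnt3, Wnt4, Wnt5a, Wnt5b, Wnt6 or Rspo2. The sign of Wnt11 turned in 1 of 18, of Rspo3 in 2 of 18 and of Rspo1 in 6 of 18. Over all genes, 338 were lower and 57 higher in Zeb2+/-. The lower count was 128 at a mean of at least 5 FPKM, 694 with array weights and 187 with voom, and 205 to 388 without 1 library (leaving out WT library 1 gave 205 and WT library 4 gave 211). The higher count was 20 without a filter, 29 at a mean of at least 5 FPKM, 15 with TPM scaling, 94 with quantile normalization, 493 with array weights, 23 with the replicate block, 15 with voom and 13 to 99 without 1 library (leaving out a WT library gave 13 to 19 and Zeb2+/- library 1 gave 99). Of the other pathway genes 2 were lower, 0 at a mean of at least 5 FPKM (Sfrp1 and Sfrp5 are under it), 1 with quantile normalization, 1 with voom, 3 with TPM scaling (with Ctnnb1), 3 with array weights (with Fzd1) and 1 to 4 without 1 library (1 without Zeb2+/- library 3 or any 1 WT library, 4 without Zeb2+/- library 1). Deviations of same-numbered libraries correlated at r of -0.189 to 0.327, and those of different number at -0.379 to 0.200. These few correlations cannot settle whether the numbers pair the libraries. The replicate block gave 276 lower over all genes and 1 pathway gene (Sfrp1). The cause of these shifts was not tested. No setting run called any of them higher. Zeb2 passed with voom (log2 fold change -1.74, adjusted p = 0.0350), and its adjusted p was 0.0517 to 0.221 in the other alternatives run. Few reads limit Wnt3, Wnt5b, Wnt11 and the R-spondins, whose genotypes overlapped.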

Other observations

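Ptk7, a co-receptor of the beta-catenin-independent branch, lay just under the minimum of 1 FPKM and was chosen after its values were seen. It had 0.310, 0.526, 0.435 and 0.536 FPKM in Zeb2+/- libraries 1 to 4, against 1.42, 1.36, 1.62 and 1.61 FPKM in WT libraries 1 to 4. In limma's fit of all genes above 0 its log2 fold change was -0.79 (SE 0.10, adjusted p = 0.0103), and Sfrp1 was the only other pathway gene past the threshold there. Lgr5, a receptor of R-spondins that marks crypt stem cells, was also chosen after its values were seen. It had 0.549 ± 0.213 FPKM in Zeb2+/- and 0.942 ± 0.0886 FPKM in WT (adjusted p = 0.331 in the same fit). Its groups narrowly did not overlap, with a highest Zeb2+/- value of 0.785 FPKM and a lowest WT value of 0.811 FPKM. Of the 27850 genes above 0, 4.82% were lower in Zeb2+/- without overlap. Wnt2, a ligand close to Wnt2b in sequence, was likewise chosen after its values were seen and had few reads. It was listed at 0 in Zeb2+/- libraries 1, 3 and 4 and at 0.0393 FPKM (1 read) in Zeb2+/- library 2. WT libraries 1 to 4 had 9, 8, 3 and 2 reads, or 0.0616 to 0.265 FPKM. Its adjusted p was 0.252 in limma's fit of all genes above 0.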
